A study of Mus musculus with 6 samples.

Results

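The sebaceous and fatty acid synthesis genes are a chosen list of 40 mouse genes whose products make, modify, store or carry fatty acids and the lipids built from them. They were picked by name for these roles, with earlier results of these data known, and all 40 were found among the 41214 gene identifiers of the count tables. The data came from RNA sequencing of mouse epidermis, prepared from trypsinised skin of C57BL/6 pups on postnatal day 4. Arpc4 encodes part of the Arp2/3 complex, the machine that starts new actin branches, and the comparison asked how its knockout alters expression in the epidermis. There were 3 libraries of ARPC4 ko epidermis and 3 of wt epidermis, both on the C57BL/6 background and of the same age. The promoter or cell type that drives the deletion is not given in the sources used here. The titles of replicates 1 and 2 of each group carry a date and those of replicate 3 do not, and the labels are silent on whether replicates are separate animals; the p-values cover only library-to-library spread.

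Fatty acid synthesis starts with the carboxylation of acetyl-CoA to malonyl-CoA, which fatty acid synthase extends to palmitate. Desaturases then place double bonds, elongases of the endoplasmic reticulum lengthen the chain, and acyl-CoA synthetases activate free acids for use. Sebaceous glands, which sit beside hair follicles, turn these acids into sebum, rich in wax esters, sterol esters and triglycerides, and keratinocytes use very long acids for the barrier lipids of the stratum corneum.

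The libraries held 17561294 to 20745246 counts in genes in ko epidermis and 19532675 to 22659511 in wt epidermis. Values are CPM, counts scaled to a common library size by the trimmed mean of M-values (TMM). Arpc4 itself was at 67.5, 65.6 and 64.5 CPM in ko libraries, against 72.6, 82.5 and 73.1 CPM in wt libraries, so its transcript was still counted in ko epidermis. The female-specific transcript Xist stood at 543, 0.177 and 508 CPM in ko libraries and at 0.220, 0.426 and 579 CPM in wt libraries, in replicate order, so sex was unbalanced between the groups. The suprabasal keratin Krt1 stood at 36480 to 70330 CPM in ko libraries and 31500 to 52620 CPM in wt libraries.

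Pparg, Acacb, Scd1, Scd3, Far2, Awat1, Awat2 and Soat1 lay lower in ko epidermis than in wt epidermis without overlap, though none passed the main test, while the core enzymes Acaca and Fasn, the desaturase Scd2 and the reductase Far1 did not separate the groups. Of the 40 genes, 37 passed the filter on low counts, and 32 of these 37 had a fitted change below 0, with a median log2 fold change (ko over wt) of -0.47 against 0.02 over all 13704 genes tested. No member passed the main test, edgeR's quasi-likelihood test at a Benjamini-Hochberg adjusted p under 0.05: 0 of 37 were called higher, where the background over all genes was 0.219%, and 0 were called lower, where the background was 0.0%. At an unadjusted p under 0.05, 18 of 37 members (48.6%) were lower in ko epidermis, against 5.25% of all genes, and 1 member, Fabp5, was higher, against 7.98% of all genes.

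Groups that did not overlap gave a like picture. In 16 of 37 members (43.2%) the highest ko library was still under the lowest wt library, against 8.03% of all genes, and in 1 member, Fabp5, the lowest ko library was still over the highest wt library, against 11.3% of all genes. Without wt replicate 3 the first of these counts was 27, but groups of 3 and 2 separate more easily. The share of all genes without that replicate was not counted, so the 27 cannot be judged. DESeq2, run as an alternative, called 14 of 38 members lower (36.8%), against 1.42% of its 15388 genes, and 1 higher, against 2.79%. With the presence of a date in the title as a covariate, edgeR called 12 of 37 members lower (32.4%), against 1.98% of all genes, and 1 higher, against 3.2%. Calls that rest on either alternative are named as such. With sex as covariate edgeR called 0 members lower and 1 higher, Fabp5, and limma-voom called 0 members. No member called lower by DESeq2 or with the title date thus passed with sex as covariate. The counts over all genes with sex as covariate are given further below.

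Marker genes of several cell types differed alongside the members. Sebaceous markers that are not members summed to 2119, 1582 and 1873 CPM in ko libraries and to 2896, 2978 and 2152 CPM in wt libraries, most of it from the keratin Krt79. Of the 9 tested, 3 lay below wt in every library, against 8.03% of all genes. Krt7 and Prdm1 had fitted changes above 0 (log2 fold changes 0.17 ± 0.33 and 0.04 ± 0.275 SE). Endothelial markers summed to 19.0 to 29.3 CPM in ko libraries and 5.32 to 6.44 CPM in wt libraries, with all 11 tested above wt in every library. Fibroblast markers summed to 978 to 2015 CPM in ko libraries and 212 to 476 CPM in wt libraries, with 7 of 10 above. Of all genes, 11.3% lay above wt in every library. Summed hair follicle (4043 to 6566 CPM in ko libraries, 3807 to 11350 in wt libraries), basal (3392 to 12180 in ko, 2118 to 10620 in wt) and suprabasal (92400 to 172200 in ko, 90690 to 150700 in wt) markers overlapped. Melanocyte markers summed to 98.7 to 139 CPM in ko libraries and 70.5 to 91.5 CPM in wt libraries, macrophage and Langerhans cell markers to 308 to 390 CPM in ko libraries and 270 to 332 CPM in wt libraries, and muscle markers to 4.67 to 40.1 CPM in ko libraries and 5.24 to 10.2 CPM in wt libraries. Adipocytes also express many of the members; their defining marker Adipoq was at most 1.14 CPM in any library, and 0 of the 6 adipocyte markers tested separated the groups. Of the markers, 0 passed edgeR's test at an adjusted p under 0.05. At an unadjusted p under 0.05 all 11 endothelial, 8 fibroblast, 3 melanocyte and 1 macrophage marker were higher and 6 sebaceous markers lower. At that unadjusted p, 7.98% of all genes were higher and 5.25% lower. With the title date as covariate edgeR called 7 endothelial markers, 3 fibroblast markers and the macrophage marker Mrc1 higher, and 2 sebaceous markers lower. That fit called 3.2% of all genes higher and 1.98% lower. In bulk epidermis, fewer sebaceous cells and less RNA of these genes per cell cannot be told apart, and the part of the cell type markers in the members' differences was not tested.

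**Figure D1:**
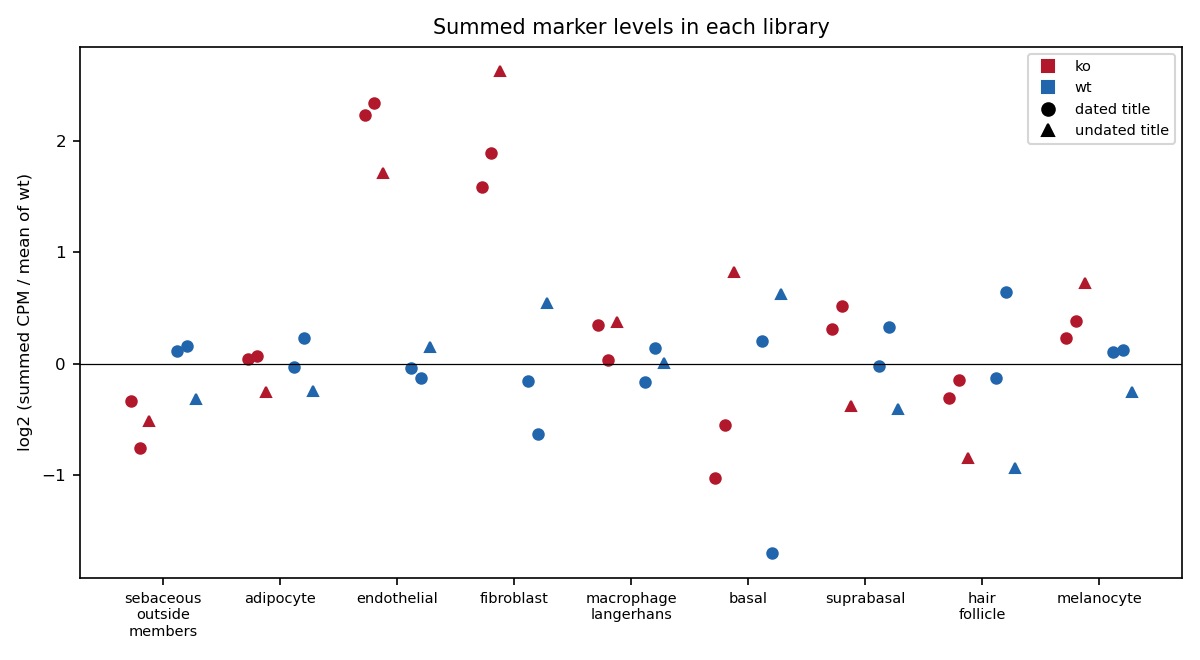
Summed CPM of each cell type marker list in every library, as the log2 ratio to the wt mean of that list, ko (red) left of wt (blue); circles are libraries with a dated title, triangles those without. Endothelial markers in ko libraries (19.0 to 29.3 CPM) all lie above those in wt libraries (5.32 to 6.44 CPM). The sebaceous sum in ko libraries (1582 to 2119 CPM) lies below that in wt libraries (2152 to 2978 CPM). Most of that sum is Krt79, and not every marker of the list was lower.

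Among the regulators, Pparg, the nuclear receptor that drives sebocyte and adipocyte differentiation, was at 4.37, 2.84 and 3.51 CPM in ko libraries, against 9.64, 8.19 and 7.53 CPM in wt libraries. The groups did not overlap, and the highest ko library stood well under the lowest wt library. The log2 fold change was -1.24 ± 0.23 (SE, edgeR adjusted p = 0.0941). Pparg passed with the title date as covariate (edgeR adjusted p = 0.029) and in DESeq2 (adjusted p = 0.000173), but not with sex as covariate (edgeR adjusted p = 0.118). Srebf1, which encodes the transcription factor SREBP-1 that switches on fatty acid synthesis genes, was at 129, 108 and 90.0 CPM in ko libraries and 124, 126 and 102 CPM in wt libraries. Its groups overlapped, with a log2 fold change of -0.10 ± 0.17 (SE). Mc5r, the melanocortin receptor of sebaceous glands, was at 2.88, 3.67 and 2.36 CPM in ko libraries, against 4.27, 8.83 and 2.49 CPM in wt libraries, overlapping because wt replicate 3 was as low as the ko libraries. Thrsp, a lipogenic regulator of liver and fat, had 0 to 2 reads in each library of both groups and was not tested.

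The synthesis enzymes split. Acaca, the acetyl-CoA carboxylase of the cytosol, was at 180.5, 193 and 133 CPM in ko libraries and 193, 186 and 132 CPM in wt libraries, a log2 fold change of -0.01 ± 0.21 (SE). Fasn, fatty acid synthase, was at 471, 404 and 280.3 CPM in ko libraries and 503, 515 and 335 CPM in wt libraries, a log2 fold change of -0.23 ± 0.25 (SE). Both were lowest in replicate 3 of each group and their groups overlapped. Of the 51-base words of Acaca, 48.9% also occur in Gm5182, the largest share of any member, so its counts, and the ratio to Acacb, may leave out or split reads.

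Acacb, the carboxylase of the outer mitochondrial membrane, whose malonyl-CoA restrains entry of fatty acids into mitochondria, was at 21.5, 12.6 and 17.9 CPM in ko libraries, against 42.0, 43.2 and 32.3 CPM in wt libraries. No ko library reached a wt library, and the log2 fold change was -1.18 ± 0.22 (SE, edgeR adjusted p = 0.0946; 0.0327 with the title date as covariate). The log2 ratio of Acacb to Acaca within a library was -3.07, -3.94 and -2.89 in ko libraries and -2.20, -2.11 and -2.03 in wt libraries. The ratios did not overlap, with a mean difference of -1.19 (exact two-sided permutation p = 0.1, the smallest that 3 against 3 allows; 0.143 after Benjamini-Hochberg adjustment over 10 gene pairs chosen after their values were seen).

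The stearoyl-CoA desaturases place the double bond that turns stearate and palmitate into monounsaturated acids, and Scd1 and Scd3 are the forms known from sebaceous glands. The 3 genes lie in 1 cluster on chromosome 19 of GRCm38 (mm10), with Scd3 at chr19:44203269-44244016 on the plus strand, Scd2 at chr19:44293674-44306864 on the plus strand and Scd1 at chr19:44394455-44407879 on the minus strand. Their coding sequences are alike, which matters for counts from 51-base reads: Scd1 was identical to Scd2 at 90.4% of aligned coding bases and to Scd3 at 91.5%, and 4.48% of the 51-base words of Scd1, 3.89% of those of Scd2 and 6.32% of those of Scd3 also occur in another annotated gene. Most words were thus found in 1 gene alone. A stretch of 51 coding bases in which the genes differ is shown as an example, read from GENCODE M21 transcripts in the sense direction. Capitals mark the 20 positions where the 3 genes are not all the same.
Scd1: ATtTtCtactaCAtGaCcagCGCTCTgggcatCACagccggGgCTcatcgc
Scd2: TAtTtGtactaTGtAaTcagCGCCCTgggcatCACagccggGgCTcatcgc
Scd3: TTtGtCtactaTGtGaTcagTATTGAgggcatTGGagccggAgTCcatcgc

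Scd1 was at 484, 315 and 508 CPM in ko libraries, against 892, 1005 and 952 CPM in wt libraries. All 3 ko libraries lay under all 3 wt libraries, with ko replicate 2 lowest, and the log2 fold change was -1.12 ± 0.21 (SE, edgeR adjusted p = 0.0946; 0.0226 with the title date as covariate). Scd3 was at 36.4, 19.0 and 40.5 CPM in ko libraries, against 80.9, 111 and 108 CPM in wt libraries. It showed the same order of ko libraries, without overlap, and a log2 fold change of -1.64 ± 0.29 (SE, edgeR adjusted p = 0.0879; 0.0285 with the title date as covariate). Scd2, the desaturase expressed in most tissues, was at 862, 994.5 and 428 CPM in ko libraries and 953, 982 and 469 CPM in wt libraries. Its groups overlapped, replicate 3 was lowest in both, and the log2 fold change was -0.07 ± 0.40 (SE).

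The within-library log2 ratio of Scd1 to Scd2 was -0.83, -1.66 and 0.25 in ko libraries and -0.10, 0.03 and 1.02 in wt libraries. Replicate 3 gave the highest ratio in each group and the groups overlapped, with a mean difference of -1.07 (exact two-sided permutation p = 0.3). Between libraries with a dated title the difference was -1.22, and between the 2 undated libraries it was -0.77.

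The fatty acid desaturases act on polyunsaturated acids. Fads1, the delta-5 desaturase, was at 12.2, 8.34 and 8.97 CPM in ko libraries and 5.37, 6.12 and 12.9 CPM in wt libraries, and Fads2, the delta-6 desaturase whose loss alters sebum in mice and which makes sapienate in human sebocytes, was at 3.83, 2.07 and 2.25 CPM in ko libraries and 1.89, 2.39 and 2.54 CPM in wt libraries. Both overlapped. Fads3, which desaturates sphingoid bases, was at 56.0, 48.9 and 33.6 CPM in ko libraries and 84.4, 119.8 and 32.9 CPM in wt libraries, with wt replicate 3 the lowest of the 6.

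The 3 elongases among the members lay lower without overlap, against 8.03% of all genes. All 3 passed edgeR with the title date as covariate, against 1.98% of all genes, and DESeq2, against 1.42%. Other elongases of the family, counted with the supply and elongation genes, did not separate the groups: Elovl1 was at 634 to 1078 CPM in ko libraries and 802 to 1666 CPM in wt libraries, Elovl4 at 1431 to 1991 CPM in ko libraries and 1863 to 2413 CPM in wt libraries, and Elovl7 at 453 to 633 CPM in ko libraries and 386 to 716 CPM in wt libraries. None of these passed with the title date as covariate or in DESeq2. Elovl3, an elongase of saturated and monounsaturated very long chains that is prominent in sebaceous glands, was at 38.8, 32.6 and 41.5 CPM in ko libraries, against 78.9, 86.8 and 57.1 CPM in wt libraries, a log2 fold change of -0.98 ± 0.18 (SE, edgeR adjusted p = 0.0946). Elovl5, which lengthens polyunsaturated acids, was at 92.5, 58.4 and 85.8 CPM in ko libraries, against 134, 173 and 168 CPM in wt libraries, a log2 fold change of -1.004 ± 0.20 (SE, edgeR adjusted p = 0.105). Elovl6, which lengthens palmitate, was at 302, 298 and 254 CPM in ko libraries, against 482, 481 and 370.4 CPM in wt libraries, a log2 fold change of -0.64 ± 0.16 (SE, edgeR adjusted p = 0.157). The gap of Elovl3 was narrower between the undated libraries, -0.46 on the log2 scale, than between the dated ones, where the fitted log2 fold change was -1.24; the difference between the 2 was not tested.

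**Figure D2:**
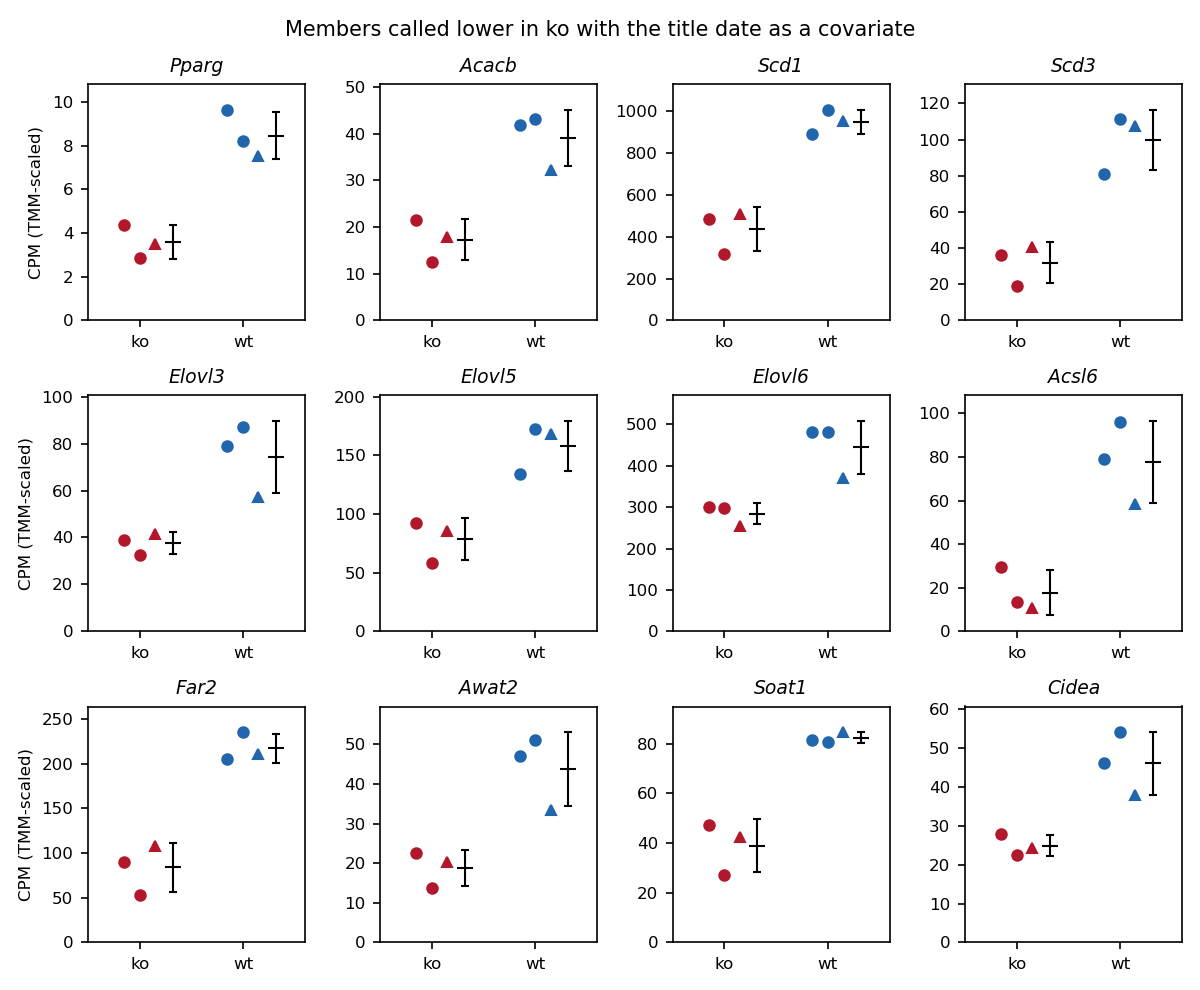
CPM in each library of the 12 members called lower with the title date as covariate, ko (red) left of wt (blue); circles are libraries with a dated title, triangles those without, and black bars give the mean ± SD (n = 3). The ko libraries of Scd1 lie at 315 to 508 CPM, all under the wt libraries at 892 to 1005 CPM.

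Acyl-CoA synthetases link free fatty acids to coenzyme A. Acsl6, known mainly from brain and testis, had the lowest fold change of all members: it was at 29.5, 13.4 and 10.5 CPM in ko libraries, against 79.3, 95.8 and 58.4 CPM in wt libraries. The groups did not overlap, and the fitted level in wt was 4.36-fold that in ko. The log2 fold change was -2.12 ± 0.41 (SE, edgeR adjusted p = 0.0952; 0.0221 with the title date as covariate). Without ko replicate 1, the highest of the ko libraries, Acsl6 passed edgeR's test with a log2 fold change of -2.70.

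Acsl5, a synthetase of endoplasmic reticulum and mitochondria, was at 257, 250.6 and 219.8 CPM in ko libraries, against 311, 347 and 315 CPM in wt libraries, without overlap (log2 fold change -0.42 ± 0.13 SE, edgeR adjusted p = 0.226). Its exons overlap those of Zdhhc6 on the other strand. Acsl4, which prefers arachidonate, was at 38.0, 36.2 and 24.6 CPM in ko libraries, against 46.4, 44.0 and 46.9 CPM in wt libraries, also without overlap (log2 fold change -0.47 ± 0.18 SE, edgeR adjusted p = 0.319). Acsl1, at 265 to 506 CPM in ko libraries and 405 to 576 CPM in wt libraries, Acsl3, at 14.0 to 23.6 CPM in ko libraries and 17.6 to 19.0 CPM in wt libraries, and the bubblegum synthetase Acsbg1, at 307 to 456 CPM in ko libraries and 378 to 556 CPM in wt libraries, overlapped.

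Wax esters join a fatty alcohol, made by the reductases Far1 and Far2, to a fatty acid through the wax synthases Awat1 and Awat2, while Soat1 esterifies cholesterol. Of these 5 genes, 4 lay lower without overlap, against 8.03% of all genes. The summed level of the 5 was 262, 172.8 and 286.6 CPM in ko libraries, against 516.6, 560.2 and 443.5 CPM in wt libraries. Far2 was at 90.3, 53.5 and 108 CPM in ko libraries, against 206, 236 and 210.4 CPM in wt libraries. All 3 ko libraries lay under all 3 wt libraries, with a log2 fold change of -1.37 ± 0.25 (SE, edgeR adjusted p = 0.0945; 0.0297 with the title date as covariate). Of the 51-base words of Far2, 15% also occur in other annotated transcripts, mostly those of Ergic2 on the opposite strand, and the strand setting used for counting is not given in the sources used here.

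Far1, the reductase found in most tissues, was at 44.4, 41.0 and 63.9 CPM in ko libraries and 76.4, 64.1 and 56.4 CPM in wt libraries. It overlapped, since ko replicate 3 exceeded wt replicate 3. The within-library log2 ratio of Far2 to Far1 was 1.02, 0.39 and 0.75 in ko libraries and 1.43, 1.88 and 1.90 in wt libraries, without overlap (mean difference -1.01, exact two-sided permutation p = 0.1, the smallest possible). Over the 10 gene pairs, this one too chosen after its values were seen, the Benjamini-Hochberg adjusted permutation p was 0.143.

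Awat2 was at 22.5, 13.7 and 20.2 CPM in ko libraries, against 47.1, 51.1 and 33.3 CPM in wt libraries (log2 fold change -1.22 ± 0.24 SE, edgeR adjusted p = 0.0988; 0.0377 with the title date as covariate). Awat1, its neighbour on the X chromosome, was at 57.4, 37.5 and 52.3 CPM in ko libraries, against 106, 129 and 58.6 CPM in wt libraries (log2 fold change -0.99 ± 0.31 SE, edgeR adjusted p = 0.237). Neither overlapped, but wt replicate 3 of Awat1 stood just above ko replicate 1, and Awat1 passed neither with the title date as covariate nor in DESeq2. Soat1 was at 47.4, 27.1 and 42.3 CPM in ko libraries, against 81.6, 80.5 and 84.7 CPM in wt libraries, with tight wt values and no overlap (log2 fold change -1.08 ± 0.21 SE, edgeR adjusted p = 0.0946; 0.0337 with the title date as covariate).

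Glycerolipid synthesis genes showed smaller differences. None of the 5 tested of 6 had groups without overlap, where 8.03% of all genes lay below wt throughout and 11.3% above. Dgat1, an enzyme of the last step of triglyceride synthesis that also makes wax and retinyl esters, was at 35.2, 24.2 and 29.2 CPM in ko libraries, against 45.3, 50.05 and 33.4 CPM in wt libraries, where wt replicate 3 lay under ko replicate 1 (log2 fold change -0.54 ± 0.20 SE, edgeR adjusted p = 0.323). Dgat2, the other enzyme of that step, was at 785, 766 and 505 CPM in ko libraries and 792, 1049 and 558 CPM in wt libraries, overlapping. Gpam, the mitochondrial enzyme of the first acylation, ranged over 54.0 to 86.0 CPM in ko libraries and 57.0 to 113 CPM in wt libraries. Agpat2 ranged over 8.04 to 12.01 CPM in ko libraries and 11.8 to 14.7 CPM in wt libraries, and shares exon bases with Egfl7, an endothelial gene on the other strand. Lpin1, the phosphatidate phosphatase, was at 2.90 to 6.14 CPM in ko libraries and 2.82 to 5.49 CPM in wt libraries. Mogat2, the intestinal monoacylglycerol acyltransferase, had 0 to 2 reads in ko libraries and 0 to 1 in wt libraries and was not tested.

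Of the lipid droplet and carrier genes, Cidea, a droplet fusion protein of sebocytes and brown fat, was at 27.8, 22.5 and 24.3 CPM in ko libraries, against 46.3, 54.1 and 38.0 CPM in wt libraries. The groups did not overlap, with a log2 fold change of -0.89 ± 0.16 (SE, edgeR adjusted p = 0.0928; 0.0219 with the title date as covariate). Plin2, a coat protein of lipid droplets, was at 99.0, 61.3 and 77.7 CPM in ko libraries, against 173, 199.8 and 103 CPM in wt libraries. It did not overlap either (log2 fold change -1.0 ± 0.28 SE, edgeR adjusted p = 0.194), and passed in DESeq2 (adjusted p = 0.0307) but not with the title date as covariate (edgeR adjusted p = 0.0772). Plin3, a broadly expressed coat protein, was at 45.2 to 52.3 CPM in ko libraries and 48.0 to 58.0 CPM in wt libraries. Plin5, the coat protein of oxidative tissues, had 2 to 5 reads in ko libraries and 3 to 13 in wt libraries and was too low for the main test. Cd36, the fatty acid transporter, was at 30.2, 23.2 and 25.0 CPM in ko libraries, against 49.9, 54.4 and 26.8 CPM in wt libraries, overlapping at wt replicate 3. Fabp4, the fatty acid binding protein of adipocytes and endothelium, was at 12.2 to 30.4 CPM in ko libraries and 14.1 to 27.1 CPM in wt libraries.

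Of the 5 members with a fitted change above 0, Fabp5, the epidermal fatty acid binding protein, was the one whose groups did not overlap. It was at 1193, 2047 and 1241 CPM in ko libraries, against 671.5, 787 and 578 CPM in wt libraries. All 3 ko libraries lay above all 3 wt libraries, ko replicate 2 by most, and the mean in ko was 2.2-fold that in wt. The log2 fold change was 1.14 ± 0.26 (SE, edgeR adjusted p = 0.136), and Fabp5 passed with the title date as covariate (edgeR adjusted p = 0.0318) and in DESeq2 (adjusted p = 0.0041). Pseudogene copies hold 20.4% of its 51-base words, so part of its reads may have been left uncounted or split.

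**Figure D3:**
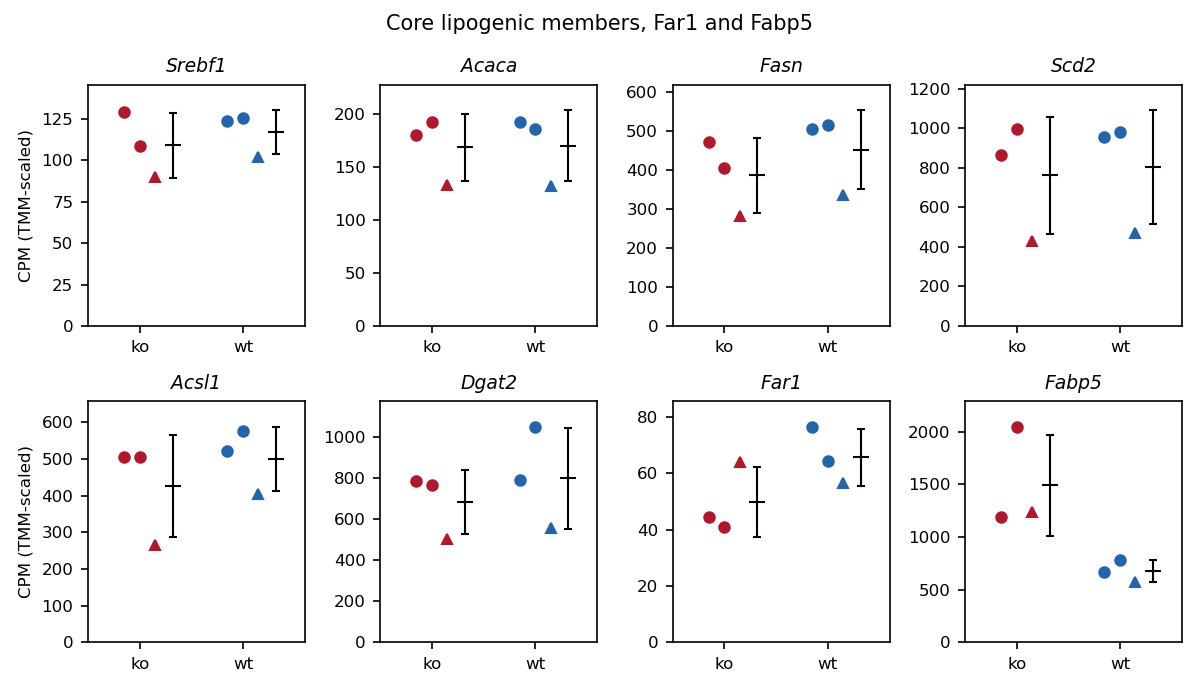
CPM in each library of Srebf1, Acaca, Fasn, Scd2, Acsl1, Dgat2, Far1 and Fabp5, ko (red) left of wt (blue); symbols are circles for dated titles and triangles for undated ones, with the mean ± SD (n = 3) in black. Scd2 lies at 428 to 994.5 CPM in ko libraries and 469 to 982 CPM in wt libraries, with replicate 3 lowest in both groups.

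**Figure D4:**
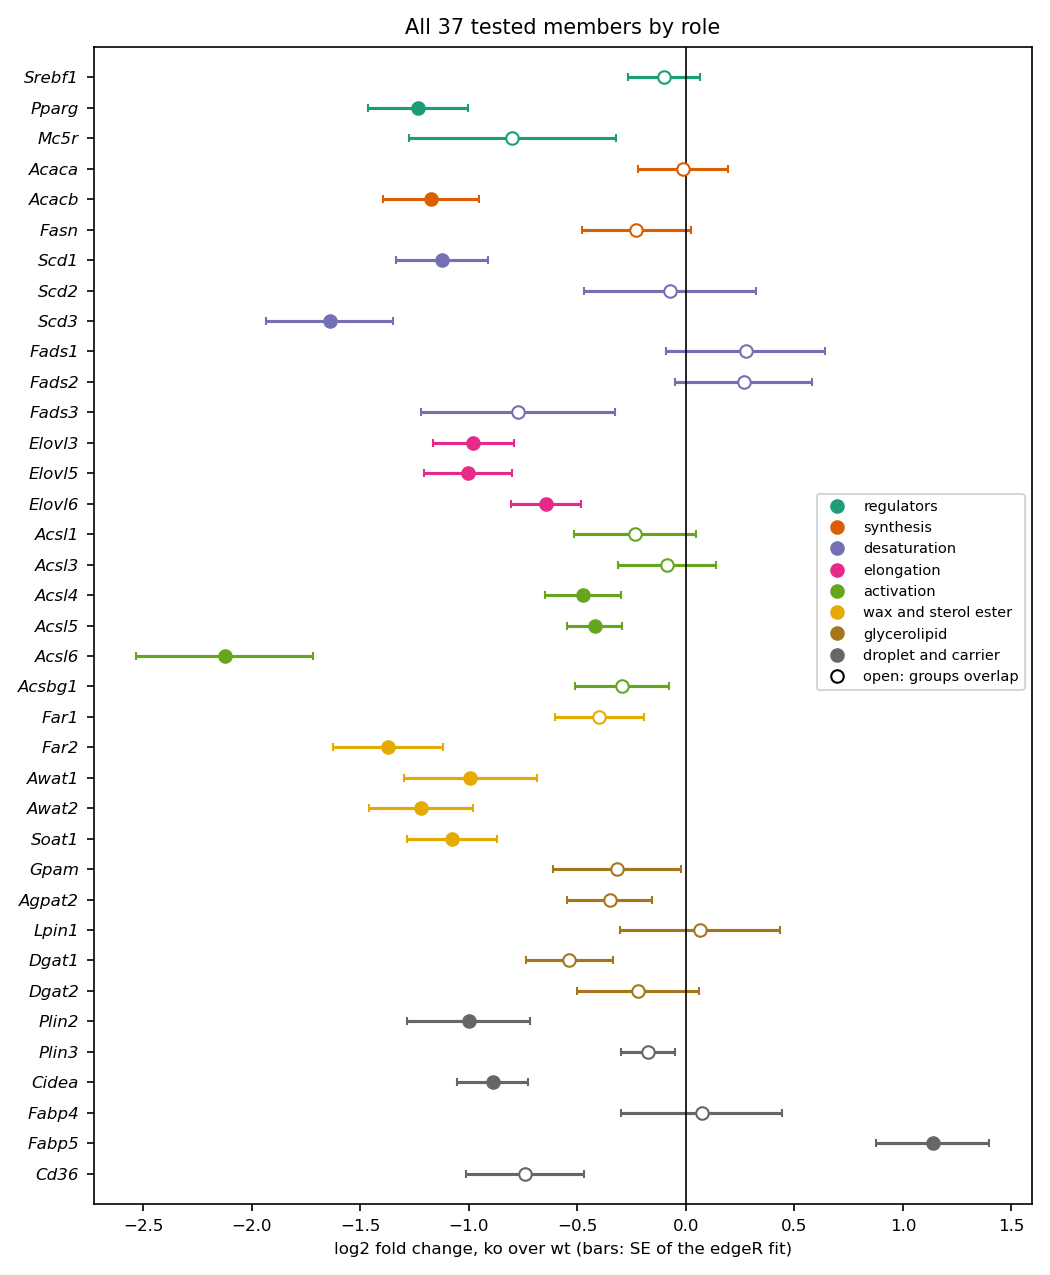
Log2 fold change (ko over wt) of the 37 tested members with its standard error, by role; filled points mark groups that do not overlap. Values run from -2.12 for Acsl6 to 1.14 for Fabp5, and 32 of 37 lie below 0.

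Levels can be compared between genes only per length of transcript. Per kilobase of merged exons, Fabp5 led in ko epidermis at 419 ± 135 CPM per kb, followed by Dgat2 at 222 ± 50.6, Scd2 at 139 ± 54.3, Acsbg1 at 109 ± 21.3 and Scd1 at 89.1 ± 21.5 (SD, n = 3). In wt epidermis Dgat2 led at 259 ± 79.6 CPM per kb, followed by Scd1 at 194 ± 11.6, Fabp5 at 190 ± 29.3, Scd2 at 147 ± 52.8 and Acsbg1 at 134 ± 25.8. Neighbours among these wt levels lay within their SDs of each other, and the place of Fabp5 depends on the length taken: with its principal transcript it came to 1510 CPM per kb in ko epidermis and 688 in wt epidermis, the highest in both.

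Of the 16 members in which ko stayed under wt throughout, 12 were lowest in ko replicate 2. Among all 37 tested members, 14 had their lowest level in replicate 3 of both groups, Elovl6 and Acsl6 among them. Across the 6 libraries the log2 CPM of Scd1 was most like that of Far2 (Pearson r = 0.997), Scd3 (r = 0.996) and Soat1 (r = 0.988), whereas that of Scd2 was most like Acaca (r = 0.993). Scd2 followed the summed suprabasal keratinocyte markers (r = 0.895) and Scd1 did not (r = -0.42). The points are 6 libraries that fall into the same 3 ko and 3 wt libraries and the same dated and undated titles for every gene, so these correlations are a description and carry no test.

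Other genes of the same pathways were counted in lists by role. Among 19 tested genes of acetyl-CoA supply and elongation, 0 passed edgeR in either direction (unadjusted p under 0.05 in 4 lower and 0 higher, 2 lower in DESeq2), 4 lay below wt in every library, against 8.03% of all genes, and 3 (Acss2, Slc25a1 and Fads6) were called lower with the title date as covariate, against 1.98% of all genes. Slc25a1, the mitochondrial citrate carrier, was at 40.4, 36.96 and 39.3 CPM in ko libraries, against 54.1, 57.3 and 54.2 CPM in wt libraries, a tight pair of groups without overlap (edgeR adjusted p = 0.0971). Tecr and Hacd2, enzymes of the elongation cycle, lay at log2 fold changes of -0.39 ± 0.15 and -0.43 ± 0.12 (SE).

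Among 16 tested regulators, 0 passed edgeR (unadjusted p under 0.05 in 1 lower and 0 higher, 0 in DESeq2) and 0 with the title date as covariate. The median log2 fold change was 0.03, near that of all genes, and 2 genes, Scap, the SREBP escort protein, and the transcription factor Usf1, were above wt in every library, a share near the 11.3% of all genes. Insig2, which holds SREBP in the endoplasmic reticulum, was at 122 to 159 CPM in ko libraries and 155.5 to 267 CPM in wt libraries. Among 18 tested genes of glycerolipid and droplet metabolism, 0 passed edgeR (unadjusted p under 0.05 in 5 lower and 1 higher, 2 lower in DESeq2). Mgll and Pnpla3 were called lower with the title date as covariate, against 1.98% of all genes. The same 2 lay below wt in every library, against 8.03% of all genes, and 2 others, the acyltransferase gene Gpat3 and the phosphatidate phosphatase gene Lpin2, above it, against 11.3%. Lpin2 was at 17.6, 21.5 and 25.6 CPM in ko libraries, against 15.9, 10.4 and 15.5 CPM in wt libraries (log2 fold change 0.63 ± 0.22 SE, edgeR adjusted p = 0.29). Mgll, monoacylglycerol lipase, was at 74.1, 49.4 and 91.3 CPM in ko libraries, against 149, 134 and 156 CPM in wt libraries, without overlap (log2 fold change -1.03 ± 0.22 SE, edgeR adjusted p = 0.123). Among 9 tested uptake and carrier genes, 0 passed edgeR (unadjusted p under 0.05 in 1 lower and 1 higher, 1 lower in DESeq2) and 0 with the title date as covariate. Slc27a1, a fatty acid transport protein, was at 16.0 to 22.3 CPM in ko libraries and 28.4 to 32.4 CPM in wt libraries.

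The promoters of the members were read for 3 motifs of lipogenic factors and the CCAAT box, over 250 bases before to 50 after the start, on both strands, in the RefSeq table of GRCm38.p6. It held 39 promoters of 29 of the 40 members. The core of the sterol regulatory element, TCACCCCAC, occurred in 1 member, Acsl1, and in 0.551% of all 32851 promoters, and the E-box CACGTG in 2 members, Elovl5 and Plin2, and in 7.15% of all. The PPAR response element was read as 2 copies of AGGTCA with 1 base between, the first with up to 1 mismatch. It occurred in 0 members and in 0.25% of all promoters, a share so low that 0 among 39 member promoters says little. The CCAAT box, CCAAT or its reverse complement ATTGG, occurred in 25 of 39 member promoters, of 21 genes, and in 37.4% of all. Far2, Scd3, Elovl6 and Acsl4, which were also lower in ko epidermis, hold no CCAAT box in this window. As examples of promoters that hold one, the 100 bases before the start are shown for 4 members with lower levels in ko epidermis, then for Fasn, whose groups overlapped, with the CCAAT box or its reverse complement in capitals. They lie at chr6:115421966-115422065 (Pparg, plus strand), chr5:114165418-114165517 (Acacb, plus), chrX:100442718-100442817 (Awat2, minus), chr1:156474329-156474428 (Soat1, minus) and chr11:120824548-120824647 (Fasn, minus).
Pparg: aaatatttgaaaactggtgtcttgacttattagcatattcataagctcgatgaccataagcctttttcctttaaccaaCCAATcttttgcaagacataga
Acacb: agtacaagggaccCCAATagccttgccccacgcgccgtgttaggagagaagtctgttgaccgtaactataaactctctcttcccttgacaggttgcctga
Awat2: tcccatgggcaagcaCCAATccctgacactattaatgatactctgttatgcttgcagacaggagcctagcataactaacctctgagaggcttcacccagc
Soat1: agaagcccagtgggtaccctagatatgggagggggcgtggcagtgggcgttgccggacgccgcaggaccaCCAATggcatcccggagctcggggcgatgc
Fasn: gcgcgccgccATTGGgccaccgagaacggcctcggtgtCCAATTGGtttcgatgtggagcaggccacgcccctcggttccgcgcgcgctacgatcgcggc
Only 1 of the 3 listed promoters of Pparg is shown, and another of them holds no box. Members with and without overlap of the groups hold a box, and a match is a run of letters, not a measured binding site.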

How the data were processed

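The deposited values are raw counts of reads per gene, from stranded mRNA libraries of 51-base single reads. Per the submitters' processing notes the authors used TopHat2 2.0.12, Bowtie 1.1 and HTSeq with mm10; neither strand option nor annotation release was stated in those notes. HTSeq's summary lines, which name no gene, were left out of library sizes. Symbols and coordinates came from GENCODE M21. Genes were filtered with filterByExpr, scaled by TMM, and tested with edgeR 4.0.16 (quasi-likelihood, robust, R 4.3.3) at a Benjamini-Hochberg adjusted p of 0.05 over 13704 genes; fold changes compare ko with wt, and SEs were derived from the F statistic (absolute log2 fold change over its square root). DESeq2 1.42.0, limma 3.58.1, a covariate for the title date, other filters and left-out libraries were alternatives. The scripts were tested on simulated data. All 40 members are named; of each other pathway list the 4 genes with the smallest p were eligible for naming, with genes called with the date covariate or separated in every library, and the other elongases, added after their values were seen. The members and lists were chosen with earlier results of these data known. Values of a gene on the uptake list are not reported here.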

Additional observations from a re-analysis of the deposited data

How the results depend on the processing

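The median log2 fold change of the members stayed below 0 under all 18 alternatives (-0.707 to -0.372). Of 666 recomputed member results 603 kept their direction and side of the threshold, 45 newly passed it and 18 changed sign, in 7 members that passed under none. As no member passed the main test, none could drop under the threshold, and a kept side means that neither fit passed. The counts of calls were far less stable than the median. The main fit had 30 genes higher and 0 lower in ko, and 0 members either way. With no filter on low counts edgeR called 55 higher and 2 lower. It called 18 higher with a filter of 1 CPM, and 18 higher with its older quasi-likelihood fit. With limma-voom 0 genes were called higher and 0 members were called. DESeq2 called 430 higher and 218 lower, with 1 member higher and 14 lower. The title date as covariate gave 438 higher and 271 lower, with 1 member higher and 12 lower. Sex as covariate gave 57 higher and 5 lower, with 1 member higher and 0 lower. The dated libraries alone gave 160 higher and 67 lower, with 5 members lower and 29 members in which ko stayed under wt throughout. Fewer libraries separate more easily, and the share of all genes that did so was not counted, so the 29 cannot be judged. The cause of the differences between these settings was not tested. A replicate block gave 254 genes higher and 100 lower, with 1 member higher and 9 lower, but the samples share only a number: deviations of same-numbered samples correlated at -0.186, 0.469 and 0.67, and ko replicate 1 correlated best with wt replicate 2 (0.509). Leaving out 1 library at a time gave 0 to 64 genes higher, 0 to 2 lower, 0 to 1 members lower (Acsl6, without ko replicate 1) and 16 to 27 members below wt throughout. For these smaller sets too, the share of all genes below wt throughout was not counted. The changes of sign were all in members with fitted changes near 0 and overlapping groups. With sex as covariate the log2 fold change was 0.136 for Acaca, 0.249 for Scd2 and -0.182 for Lpin1, and among dated libraries alone -0.039 for Lpin1. Over the libraries left out in turn it ran from -0.185 to 0.099 for Acaca, -0.368 to 0.18 for Scd2, -0.069 to 0.423 for Fads2, -0.417 to 0.045 for Acsl3, -0.323 to 0.331 for Lpin1, -0.449 to 0.02 for Dgat2 and -0.227 to 0.33 for Fabp4. Depth limits the 3 members with at most 13 reads in a library, Thrsp, Mogat2 and Plin5.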

Other observations

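Genes of fatty acid oxidation, which consume the acids that the members make, were also counted. Of 20 listed, 19 were tested and 0 passed edgeR in either direction (unadjusted p under 0.05 in 5 lower and 0 higher, 2 lower in DESeq2), while 8 lay below wt in every library, against 8.03% of all genes, and 0 above, against 11.3%, and the median log2 fold change was -0.22. With the title date as covariate, edgeR called 4 lower, against 1.98% of all genes: Slc25a20, Acaa1b, Ech1 and Decr1. Slc25a20, the mitochondrial acylcarnitine carrier, was at 22.5, 21.5 and 24.0 CPM in ko libraries, against 32, 33.2 and 31.8 CPM in wt libraries, with no overlap (log2 fold change -0.51 ± 0.10 SE, edgeR adjusted p = 0.105). Acaa1b, a peroxisomal thiolase, was at 1.24, 0.591 and 0.997 CPM in ko libraries, against 2.82, 4.63 and 2.99 CPM in wt libraries (log2 fold change -1.85 ± 0.36 SE, edgeR adjusted p = 0.0971). Acadm, the medium-chain acyl-CoA dehydrogenase, was at 35.2 to 40.9 CPM in ko libraries and 46.8 to 49.0 CPM in wt libraries.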
